A study of Bos indicus and Bos taurus with 17 samples.

Results

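Leukocytes leave the blood and move through tissue with a small set of surface proteins, and 9 of their genes were examined here in cells isolated from milk: the integrin subunit genes ITGB2, ITGAM, ITGAL, ITGAX, ITGA4 and ITGB1, the selectin ligand gene SELPLG, the hyaluronan receptor gene CD44 and the integrin ligand gene ICAM1. The genes were looked up by name, also inside joined names, and 8 of the 9 were found among 21631 distinct names in 61264 entries of which 25121 were named. ITGAX was not found by name and is not described further. ICAM1 stood in a single entry joined with ICAM4 and ICAM5, so the levels of these 3 genes cannot be told apart. CD44 had 2 entries, of which the one with the higher mean was used, and the other stayed at or below 1.16 FPKM in every group.

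RNA sequencing of milk epithelial cells compared Jersey cattle, a dairy breed, with Kashmiri cattle, a local breed not selected for milk yield, at days 15, 90 and 250 in milk (D15, D90 and D250). No agent or genetic change was applied, and all cows were described as healthy and kept on 1 farm. The labels place 3 samples in each of the 6 groups but Jersey D90, which has 2, or 17 samples in all, with 1 deposited value per gene and group. Samples of the 1st, 2nd and 3rd stage were labelled March, July and December, so stage and season cannot be told apart. Cows in lactation 2 and lactation 3 numbered 1 and 2 in Kashmiri D15, 3 and 0 in Kashmiri D90, 1 and 2 in Kashmiri D250, 2 and 1 in Jersey D15, 1 and 1 in Jersey D90, and 3 and 0 in Jersey D250. The study's methods instead describe cows of the third lactation, each breed being sampled on every day, and the conflict could not be settled here. By the labels, lactation number was not balanced between the groups, and they do not say whether individual cows were sampled repeatedly. Cells were taken from fresh milk with beads coated with an antibody to cytokeratin 18 (KRT18), a keratin of simple epithelia. The values are FPKM, a count of sequenced fragments divided by transcript length and by the number of mapped fragments, so levels of different genes are compared per length. Because each value stands alone, no error, test or interval was available and a single cow could carry a group value. The depth behind each value is unknown, and whether neighbours in any order of levels differ beyond the spread between cows could not be judged.

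Integrins are pairs of an α and a β chain that switch from a bent to an extended shape before they bind. The β2 chain, made from ITGB2 and also called CD18, is found on white blood cells and joins with αL, αM, αX or αD. In the mammary gland, neutrophils and other leukocytes first roll along the vessel wall on selectins that bind the SELPLG product. They then stop through β2 and α4 integrins on ligands such as ICAM1, and cross into the milk. CD44 binds hyaluronan in the matrix and is present on leukocytes and on many other cells, epithelial cells included.

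In bulk RNA of this kind more cells of a type and more RNA per cell cannot be told apart. All 8 genes had at least 1 FPKM in each of the 6 groups, and none was listed at 0. CD44 was the first of them in all 6 groups and carried between 42.2% and 59.2% of their summed FPKM. The sum of the 8 genes was 208, 722 and 382 FPKM in Kashmiri cattle (D15, D90, D250) against 771, 2308 and 2202 FPKM in Jersey cattle. In FPKM Kashmiri D15 was the lowest group for 7 of the 8 genes, the exception being ITGA4, which was lowest in Jersey D90. As a share of the summed FPKM of all named genes, Kashmiri D15 was lowest for ITGA4 too, and the span of ITGB1 was wider than in FPKM. The ratio of the highest to the lowest FPKM spanned from 1.38 for ITGB1 through 2.28 for ITGA4, 2.61 for ITGAL, 3.86 for ITGB2, 12.7 for CD44, 19.2 for SELPLG and 25.4 for ITGAM to 212 for the ICAM1 entry.

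**Figure D1:**
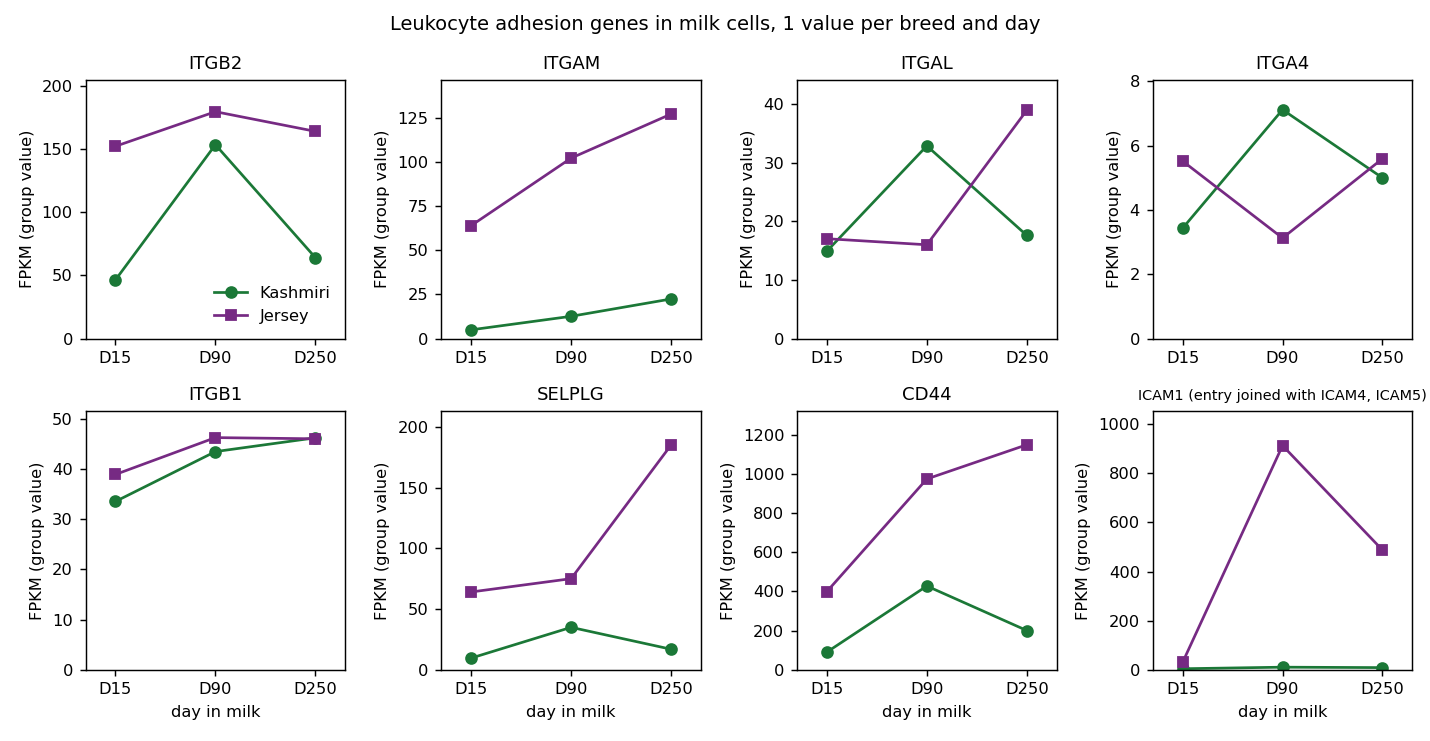
FPKM (vertical axis, linear, from 0) of the 8 adhesion genes at D15, D90 and D250 (horizontal axis) in Kashmiri (circles) and Jersey (squares) cattle, each point 1 group value without error and each panel with its own scale. Jersey lies above Kashmiri cattle on every day for ITGB2, ITGAM, SELPLG, CD44 and ICAM1, while the lines cross for ITGAL and ITGA4 and nearly coincide for ITGB1.

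ITGB2, the shared β2 chain, had 46.5, 153 and 64.1 FPKM in Kashmiri cattle (D15, D90, D250) against 152, 179 and 164 FPKM in Jersey cattle. In FPKM the Kashmiri value was high at D90 and near its starting level at D250, whereas the 3 Jersey values lay close together. The return at D250 depended on the scaling, since the summed FPKM of named genes was 969227 in Kashmiri D15 and 490166 in Kashmiri D250. As a share of that sum, ITGB2 in Kashmiri D250 was well above D15 and closer to D90. At D90 the breeds were near each other, with a log2 ratio (Jersey over Kashmiri, with a pseudocount of 1 FPKM) of 0.23, against 1.69 at D15 and 1.34 at D250. A change was called where either group reached 1 FPKM and the log2 ratio was 2 or more in size, a fold of about 4. With the deposited scaling ITGB2 did not reach this limit in any of the 9 comparisons. With groups rescaled to equal sums it was among the 5 genes called between the breeds at D15. On that scale it was also among the 3 called from D15 to D90 in Kashmiri cattle.

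ITGAM encodes αM (CD11b), which with β2 forms the receptor Mac-1 of neutrophils and macrophages. It had 4.999, 12.7 and 22.5 FPKM in Kashmiri cattle against 64.0, 102 and 127 FPKM in Jersey cattle. Every Jersey value was above every Kashmiri value, and the order of days was the same in both breeds, although Jersey D250 was slightly below Jersey D90 (log2 ratio -0.10) with equal sums. ITGAM was the only one of the 5 integrin genes found that passed the limit between the breeds on all 3 days, being 12.8-fold higher in Jersey cattle at D15 (log2 ratio 3.44), 8.08-fold at D90 (2.92) and 5.66-fold at D250 (2.45). The D250 ratio fell short of the limit with either rescaling, at 1.71 with equal sums and 1.96 with upper quartiles. Within Kashmiri cattle D250 was 4.49-fold above D15, at a log2 ratio of 1.97 just short of the limit.

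ITGAL encodes αL (CD11a), which with β2 forms LFA-1, the ICAM1 receptor most used by lymphocytes. Its FPKM was 14.9, 32.9 and 17.6 in Kashmiri cattle against 17.0, 16.0 and 38.9 in Jersey cattle. The highest Kashmiri value was at D90, and the highest Jersey value was at D250. Jersey D15 and D90 were close, and their order turned with either rescaling. The log2 ratio between the breeds was 0.18 (D15), -0.99 (D90) and 1.10 (D250), and ITGAL passed the limit in none of the 9 comparisons.

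Among the 3 genes found for α chains that can pair with β2, the RNA shares differed between the 2 breeds. The αX gene ITGAX was not found and is missing from these shares. ITGAD, the αD gene and a neighbour of ITGAM and ITGAX in the RefSeq annotation used for names, had between 0.395 and 7.27 FPKM. Of the summed FPKM of ITGAL, ITGAM and ITGAD, ITGAM made up 24.6%, 27.1% and 54.3% in Kashmiri cattle (D15, D90, D250) against 77.5%, 82.7% and 73.3% in Jersey cattle. ITGAL made up 73.4%, 70.5% and 42.6% in Kashmiri cattle against 20.6%, 12.9% and 22.5% in Jersey cattle. These shares compare genes within a group and do not move when a whole group is rescaled. Expressed as a ratio, ITGAM over ITGAL was 0.335, 0.385 and 1.28 in Kashmiri cattle against 3.76, 6.39 and 3.27 in Jersey cattle. ITGB2 exceeded the sum of the 3 α genes in 5 of the groups, by 1.45 to 3.29 times, and in Jersey D250 it was 0.946 of that sum.

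**Figure D2:**
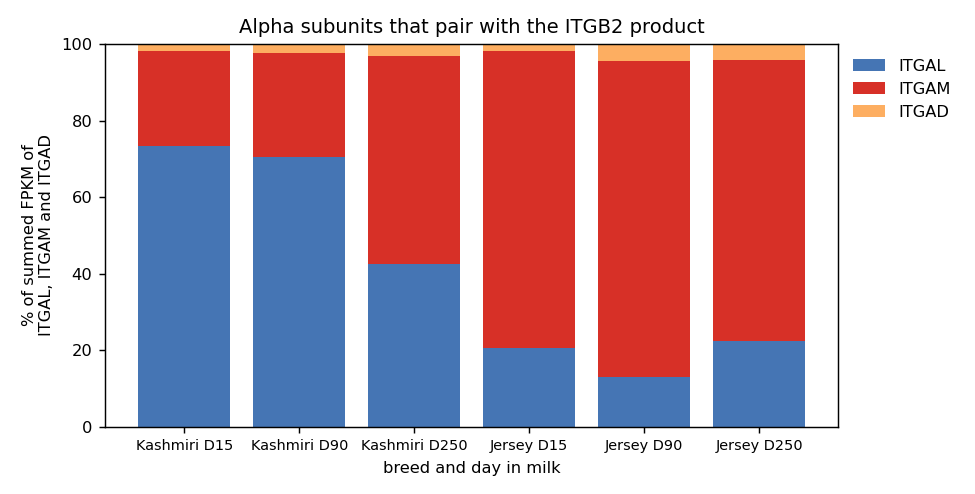
Share of the summed FPKM of ITGAL, ITGAM and ITGAD (vertical axis, percent, from 0) held by each gene in the 6 groups of breed and day (horizontal axis), 1 value per group. ITGAL holds the largest share in Kashmiri D15 and D90, and ITGAM in Kashmiri D250 and the 3 Jersey groups. ITGAX was not found and is not included.

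ITGA4 encodes α4, which pairs with β1 as the VCAM1 receptor or with β7 as the gut homing receptor of lymphocytes. Its FPKM was 3.43, 7.12 and 5.001 in Kashmiri cattle against 5.52, 3.13 and 5.60 in Jersey cattle, the lowest of the 8 genes in every group. D90 was the highest Kashmiri and the lowest Jersey value, but with equal sums Kashmiri D250 was above D90 (log2 ratio 0.16). The log2 ratio between the breeds was 0.56 (D15), -0.98 (D90) and 0.14 (D250), the last of which turned below 0 when the groups were rescaled.

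ITGB1 encodes β1, a chain present on most nucleated cells. It had 33.5, 43.5 and 46.2 FPKM in Kashmiri cattle against 38.9, 46.2 and 46.0 FPKM in Jersey cattle, and was the steadiest of the 8 genes. Its log2 ratio between the breeds was 0.21, 0.09 and -0.01, and that of D90 changed sign when groups were rescaled by their upper quartile. ITGB2 over ITGB1 was 1.39, 3.53 and 1.39 in Kashmiri cattle against 3.91, 3.88 and 3.56 in Jersey cattle. ITGB7, the other partner of α4, had 77.9, 111 and 36.0 FPKM in Kashmiri and 142, 92.1 and 215 FPKM in Jersey cattle, above ITGB1 in each group except Kashmiri D250. ITGA4 amounted to between 0.0214 and 0.0608 of the sum of ITGB1 and ITGB7.

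SELPLG encodes PSGL-1, the main ligand that leukocytes present to P-selectin and to other selectins. It had 9.66, 35.0 and 16.9 FPKM in Kashmiri cattle against 64.1, 75.1 and 185 FPKM in Jersey cattle. All Jersey values were above all Kashmiri values, with the Kashmiri maximum at D90 and the Jersey maximum at D250. SELPLG passed the limit between the breeds at D15, with a 6.64-fold higher Jersey level (log2 ratio 2.61), and at D250, with a 10.9-fold higher level (3.37), but not at D90 (1.08).

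CD44 had 90.4, 427 and 200.4 FPKM in Kashmiri cattle against 399, 973 and 1148 FPKM in Jersey cattle. The Jersey value was higher on each day, although Kashmiri D90 lay above Jersey D15. Among all 21631 names CD44 stood at position 955 from the highest in Kashmiri D15 and at position 130 in both Jersey D90 and Jersey D250. It rose 4.73-fold from D15 to D90 in Kashmiri cattle (log2 ratio 2.23). Between the breeds it was 4.42-fold higher in Jersey cattle at D15 (2.13) and 5.73-fold at D250 (2.51), whereas D90 was below the limit at a log2 ratio of 1.19.

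ICAM1 is the endothelial and epithelial ligand of LFA-1 and Mac-1, and ICAM4 and ICAM5 encode related β2 ligands best known from red cells and from the brain. The entry joining the 3 genes had 4.30, 10.6 and 8.88 FPKM in Kashmiri cattle against 30.2, 913 and 487 FPKM in Jersey cattle. Jersey D90 and D250 stood far above the other 4 groups, none of which exceeded 30.2 FPKM. The entry rose 30.2-fold from D15 to D90 in Jersey cattle (log2 ratio 4.87) and was still 16.1-fold above D15 at D250 (3.97). In Kashmiri cattle the corresponding log2 ratios were 1.14 and 0.90. Between the breeds it was 7.02-fold higher in Jersey cattle at D15 (2.56), 85.7-fold at D90 (6.29) and 54.9-fold at D250 (5.63), in positions 417 of 11202, 19 of 11209 and 75 of 11642 names ordered from the highest ratio. In Jersey D90 this entry alone made up 39.5% of the summed FPKM of the 8 genes. Jersey D90 was the group with 2 labelled samples.

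Counted together between the breeds, 4 of the 8 genes were higher in Jersey cattle at D15, namely ITGAM, SELPLG, CD44 and ICAM1, whereas 6.45% of the 11202 names tested were higher. At D90 the count was 2 of 8, ITGAM and ICAM1, against 6.58% of 11209 names. At D250 it was again ITGAM, SELPLG, CD44 and ICAM1, or 4 of 8, against 10.9% of 11642 names. None of the 8 was lower in Jersey cattle on any day, against 2.12%, 5.17% and 1.37% of all names. The median log2 ratio of the 8 genes was 1.91, 0.65 and 1.90 at D15, D90 and D250, beside medians of -0.13, -0.03 and -0.10 over all names tested. With groups rescaled to equal sums the D250 count was 2 of 8, SELPLG and ICAM1, CD44 being at a log2 ratio of 1.75, and the D250 median was 1.15. The D15 count on that scale was 5 of 8, ITGB2 being the gene added.

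**Figure D3:**
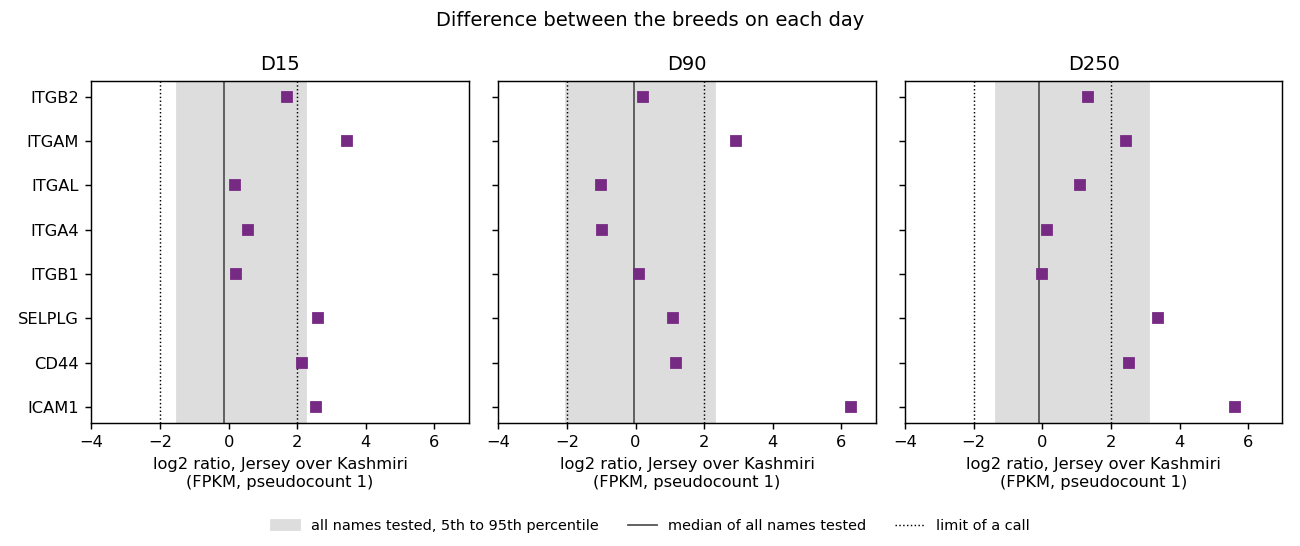
log2 ratio of Jersey over Kashmiri FPKM with a pseudocount of 1 (horizontal axis) for the 8 genes (vertical axis) at D15, D90 and D250, 1 ratio of group values per square. The grey band spans the 5th to 95th percentile of all names tested, the solid line is their median and the dotted lines are the limits of a call, past which lie 4, 2 and 4 genes.

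Across the days the calls were few. From D15 to D90 in Kashmiri cattle CD44 was the 1 gene of 8 that rose, whereas 2.34% of 11297 names were higher and 5.16% lower. All 8 ratios were above 0 and their median was 1.16 beside -0.01 for all names. With equal sums 3 of 8 were called, namely CD44, SELPLG and ITGB2. From D90 to D250 in Kashmiri cattle no gene passed the limit, beside 0.859% of names higher and 1.12% lower, and the median was -0.65. That median was -0.02 after rescaling to equal sums. Between D15 and D250 none passed either, beside 1.85% higher and 2.2% lower, at a median of 0.60.

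In Jersey cattle the ICAM1 entry was the 1 of 8 that rose from D15 to D90, where 2.98% of 11080 names were higher and 3.78% lower, and the median was 0.24. None passed from D90 to D250, with 3.72% of names higher and 0.466% lower and a median of 0.27 beside 0.15 for all names, which was -0.14 after rescaling to equal sums. From D15 to D250 ICAM1 was again the 1 gene called, beside 9.17% of names higher and 3.42% lower, and the median of the 8 was 1.06 beside 0.07. The 3 comparisons within a breed share their groups, and ICAM1 was called from D15 to D90 and from D15 to D250 against the same Jersey D15 value of 30.2 FPKM.

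The authors checked purity at D90 by quantitative PCR against unpurified milk cells. They reported KRT18 and CSN2 as higher in the purified cells, and LSP1, HBA and CD18, the ITGB2 product, as lower. Here the labelled cell type was checked against marker genes in the same deposited values. KRT18, the protein used for capture, had 51.3, 9.13 and 11.5 FPKM in Kashmiri cattle against 33.7, 1.59 and 4.51 FPKM in Jersey cattle, and CSN2, the β-casein gene, was listed at 0 in 5 groups and at 1068 FPKM in Jersey D90. LALBA, the α-lactalbumin gene, was listed at 0 in both D15 groups and at up to 13031 FPKM in the others. An exact 0 in such a table can be a failed estimate. The authors reported the casein and whey protein genes as strongly expressed at every stage in both breeds. The listed zeros of CSN2 and LALBA differ from that report and were not taken as evidence against it. Neither milk protein gene was therefore read as absent or used as a measure of epithelial RNA. PTPRC, the pan-leukocyte gene for CD45, had 68.7, 166 and 87.9 FPKM in Kashmiri and 60.0, 119.6 and 320.2 FPKM in Jersey cattle. PTPRC thus exceeded KRT18 in each group, by 1.34, 18.2 and 7.62 times in Kashmiri and 1.78, 75.2 and 71.0 times in Jersey cattle. This order depended on the epithelial gene chosen. KRT19, another keratin gene, had 3195, 295 and 1319 FPKM in Kashmiri and 1687, 38.2 and 835 FPKM in Jersey cattle. The epithelial gene ELF5 had 1799, 206 and 770 FPKM in Kashmiri and 338, 12.6 and 349 FPKM in Jersey cattle. Both were above PTPRC in each group except Jersey D90. The 12 epithelial markers other than CSN2 and LALBA, KRT18 included, summed to 5872, 719 and 2618 FPKM in Kashmiri and 2711, 100.4 and 1398 FPKM in Jersey cattle. Their sum was lowest at D90 in both breeds.

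Markers of white cell classes differed in their pattern over the groups, and not all of them followed the adhesion genes. The 8 of 12 neutrophil markers found summed to 172, 464 and 593 FPKM in Kashmiri and 4897, 5388 and 13289 FPKM in Jersey cattle, and 6 of them were higher in Jersey cattle on each day (8 tested at D15, 7 at D90 and D250). Their median log2 ratios were 4.16, 3.90 and 4.78, and with either rescaling 5 were higher at D250. S100A12, a calgranulin, rose from 39.0 to 240.4 and 294 FPKM in Kashmiri cattle and had 1615, 2267 and 4014 FPKM in Jersey cattle. The 10 macrophage markers summed to 109, 483 and 491 FPKM in Kashmiri and 1014, 2145 and 1852 FPKM in Jersey cattle. Of the 9 tested, 7, 4 and 1 were higher in Jersey cattle at D15, D90 and D250. Their medians were 3.77, 1.93 and 0.10, the last being below 0 with either rescaling. For both lists 6.45%, 6.58% and 10.9% of all names tested were higher on these days. The macrophage count at D250 was thus near the share of all names.

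T and NK cell markers had the opposite arrangement, at 371, 1511 and 354 FPKM in Kashmiri and 275, 166 and 95.6 FPKM in Jersey cattle over 10 genes. Their median log2 ratios between the breeds were -0.20, -3.24 and -1.69, that of D15 turning above 0 with equal sums. At D90, 8 of 10 were lower in Jersey cattle, against 5.17% of all names. CD3E, a T cell receptor chain, was at 659 FPKM in Kashmiri and 31.7 FPKM in Jersey cattle. Kashmiri D90 was also the Kashmiri maximum of ITGB2, ITGAL, SELPLG and CD44 under each scaling, and of ITGA4 and ICAM1 except with equal sums. At D250, 1 of 9 T and NK cell markers was lower, against 1.37% of all names. With upper quartiles 6 were lower and with equal sums 7, where 334 of 11797 and 624 of 12101 names were lower. The 6 B cell markers summed to 13.3, 68.5 and 28.4 FPKM in Kashmiri and 23.9, 11.2 and 7.42 FPKM in Jersey cattle. No marker of these 4 white cell lists was at 0 in any group, the 4 red cell markers found summed to at most 0.696 FPKM, and of the 4 endothelial markers VWF alone passed 1 FPKM. The part of these cell types in the levels of the adhesion genes was not tested.

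**Figure D4:**
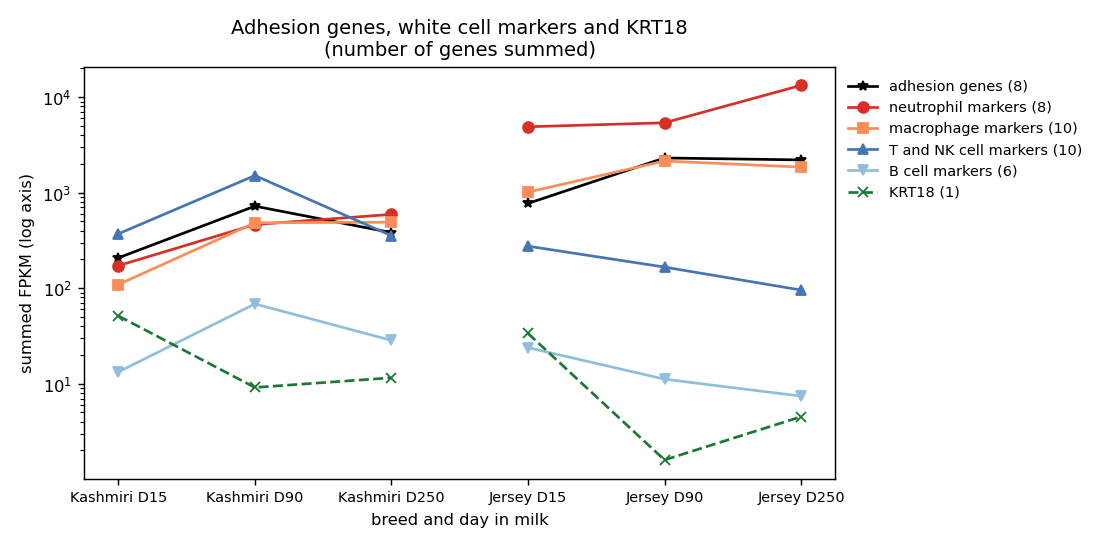
Summed FPKM (vertical axis, log scale) of the 8 adhesion genes, of 4 lists of white cell markers and of KRT18 alone in the 6 groups of breed and day (horizontal axis), with the number of genes in each list in the legend and no error, since each group has 1 value. Neutrophil markers lie above the adhesion genes in the 3 Jersey groups and in Kashmiri D250, and T and NK cell markers above them in Kashmiri D15 and D90.

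Set against PTPRC within each group, the adhesion genes were still unlike between breeds. ITGB2 over PTPRC was 0.677, 0.923 and 0.729 in Kashmiri cattle against 2.54, 1.50 and 0.512 in Jersey cattle, so that Jersey D250 was the lowest of the 6. ITGAM over PTPRC was 0.0728, 0.0762 and 0.256 in Kashmiri and 1.07, 0.854 and 0.397 in Jersey cattle. SELPLG over PTPRC was 0.141, 0.211 and 0.193 against 1.07, 0.628 and 0.578. For ITGAM, SELPLG, CD44 and ICAM1 every Jersey ratio to PTPRC was above every Kashmiri ratio, as it was not for the other 4. This separation depended on the reference gene, and LSP1 over PTPRC itself spanned 0.465 to 5.57. Against LCP1, another leukocyte gene, CD44 was not separated by breed. CD44 exceeded LCP1 in every Kashmiri group but was below it in Jersey D250, at 1148 against 1277 FPKM. CD44 over PTPRC reached 8.14 and ICAM1 over PTPRC 7.63 in Jersey D90, while ITGAL over PTPRC stayed between 0.122 and 0.284.

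**Figure D5:**
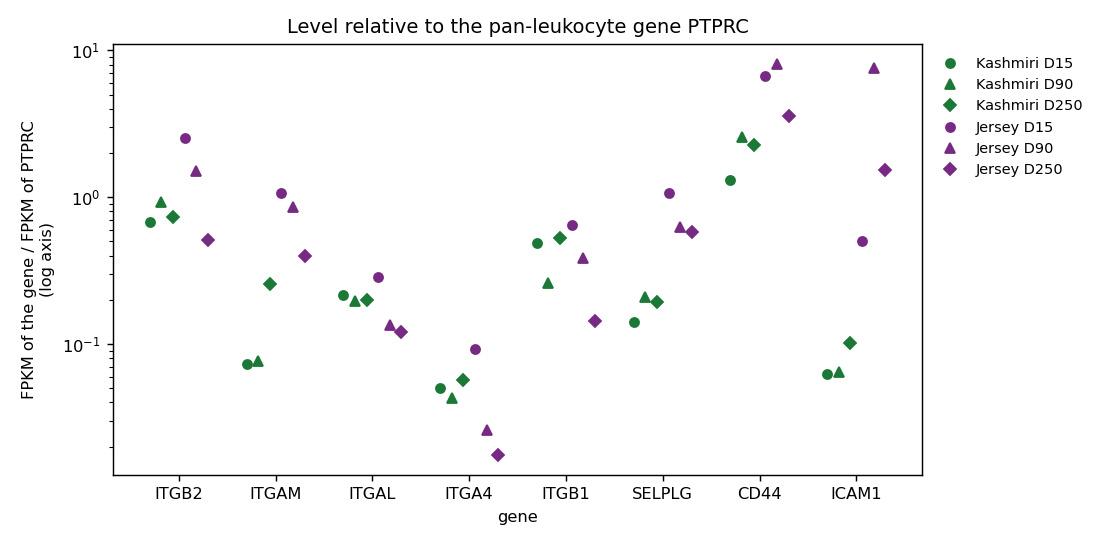
FPKM of each adhesion gene divided by the FPKM of PTPRC (vertical axis, log scale) for the 8 genes (horizontal axis) in Kashmiri (green) and Jersey (purple) groups at D15 (circles), D90 (triangles) and D250 (diamonds), 1 value per group. Purple symbols lie above all green ones for ITGAM, SELPLG, CD44 and ICAM1, an order that depends on PTPRC being the reference.

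Of 20 other integrin subunits looked up, 19 were found and 11 to 14 tested per comparison, and none passed the limit between days in either breed. Over the same pairs of days 0.859% to 9.17% of all names were higher and 0.466% to 5.16% lower. With shares this small, a count of 0 in so short a list says little about it. With equal sums 3 of 15 were higher in Kashmiri D250 than in Kashmiri D15, and 2 of 13 were higher in Jersey cattle at D15. Between the breeds the counts higher and lower in Jersey cattle were 0 and 0 at D15, 1 and 1 at D90 and 2 and 1 at D250, with median log2 ratios of 0.64, -0.10 and 0.19. The last 2 medians changed sign under a rescaling. For this list and those below, 6.45%, 6.58% and 10.9% of all names tested were higher in Jersey cattle at D15, D90 and D250. ITGB7 at D250 was 5.98-fold higher (log2 ratio 2.55), and ITGA5, the α5 chain of the fibronectin receptor, was 7.05-fold higher (2.47) at 21.3 against 3.01 FPKM. Neither was called with groups rescaled to equal sums. Chosen after their values were seen, ITGB8 was higher at D90 with 14.1 against 0.949 FPKM, ITGAE, the αE chain of T cells in epithelia, was lower at D90 with 1.40 against 10.1 FPKM, and ITGA3 was lower at D250 with 0.739 against 7.31 FPKM. The call of ITGAE was lost with equal sums. ITGA1, in an entry joined with PELO, had 9.17 to 22.8 FPKM and ITGA2B, joined with GPATCH8, 4.61 to 21.0 FPKM.

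For the endothelial selectins and the enzymes that build selectin ligands, the counts between the breeds were small, as were the shares of all names. Those shares were 6.45%, 6.58% and 10.9% higher and 2.12%, 5.17% and 1.37% lower at D15, D90 and D250. Of 8, 9 and 10 tested between the breeds at D15, D90 and D250, 0, 0 and 2 were higher in Jersey cattle and 0, 1 and 0 lower, at median log2 ratios of 1.33, 0.04 and 0.80. The D90 median was below 0 with groups rescaled by their upper quartile, and with either rescaling 1 was higher at D250. No gene of the list passed the limit between days in Kashmiri cattle, where 0.859% to 2.34% of all names were higher and 1.12% to 5.16% lower. In Jersey cattle B4GALT1, a galactosyltransferase with 37.6 and 175 FPKM, was the 1 of 9 that rose from D15 to D250, beside 9.17% of all names. TPST2, which sulphates tyrosines of the SELPLG product, was 4.56-fold higher at D250 with 71.6 against 15.7 FPKM. ST3GAL4, a sialyltransferase, had 13.2 to 35.8 FPKM over the groups. SELE and CHST2, chosen after their values were seen, were the remaining calls, with SELE at 5.94 against 0.112 FPKM at D250 and CHST2 at 0.677 against 7.39 FPKM at D90.

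Among immunoglobulin family receptors, 3 of 10 tested were higher in Jersey cattle at D15, 0 of 12 at D90 and 4 of 11 at D250, and 1 of 12 was lower at D90, at medians of 1.26, 1.19 and 0.86. With groups rescaled to equal sums 4 were higher at D90, and 3 of 11 at D250, CD47 no longer being called. With either rescaling 1 was lower at D250. VCAM1, the α4β1 ligand, was not found by name. ICAM3, a ligand of LFA-1 in an entry joined with RAVER1, had 113, 121 and 52.9 FPKM in Kashmiri and 266, 439 and 537 FPKM in Jersey cattle and was 10.1-fold higher at D250. ICAM2 had 26.9, 52.0 and 15.7 FPKM in Kashmiri and 63.0, 126 and 316 FPKM in Jersey cattle and was 20.2-fold higher at D250. CD47, a partner of integrins and the "do not eat me" signal of phagocytosis, was 5.92-fold higher at D250, and CD99 5.83-fold higher at D15. CD2, a T cell receptor, was the gene lower at D90, with 9.33 against 141 FPKM. The remaining higher calls, chosen after their values were seen, were MADCAM1 and JAM3 at D15 and PECAM1 at D250.

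Genes for the activation of integrins and for proteins at their tails formed the longest list, with 19 or 20 tested. At D15 4 of 19 were higher in Jersey cattle and none lower, at D90 4 of 19 higher and 1 lower, and at D250 9 of 20 higher and 1 lower, with median log2 ratios of 0.80, 0.67 and 1.57. With the 2 rescalings the D250 count higher was 6 and 5 of 20. FGR, a Src family kinase of myeloid cells, had 15.0, 14.1 and 20.3 FPKM in Kashmiri and 39.5, 418 and 501 FPKM in Jersey cattle and rose from D15 to D90 in Jersey cattle. LYN, a kinase of the same family, had 12.3, 13.8 and 21.8 FPKM in Kashmiri and 63.0, 152 and 422 FPKM in Jersey cattle and was higher in Jersey cattle on all 3 days. TLN1, whose product talin opens integrins by binding the β tail, had 66.1, 98.4 and 76.1 FPKM in Kashmiri and 188, 249.6 and 429 FPKM in Jersey cattle. It passed the limit at D250 with the deposited scaling but not with equal sums. RAP1A, a small GTPase that recruits talin, had 27.7, 82.3 and 69.1 FPKM in Kashmiri and 40.5, 169.5 and 456 FPKM in Jersey cattle. SKAP1, the adaptor of T cells, was the gene lower at D90 and D250, with 5.84 against 125 FPKM at D90. SKAP2, the myeloid counterpart, was higher on all 3 days, with 23.9 against 3.49, 71.6 against 5.80 and 135 against 15.1 FPKM. Both SKAP genes were chosen after their values were seen. Within Jersey cattle 6 of 19 genes of this list rose from D15 to D250, 2 rose from D15 to D90 and 1 from D90 to D250. The shares of all names that rose were 9.17%, 2.98% and 3.72%, so the last count was near its share. In Kashmiri cattle 2 of 19 rose from D15 to D90 and none of 20 from D90 or D15 to D250. There 2.34%, 0.859% and 1.85% of all names rose. These Kashmiri counts depended on the scaling, since 5 of 19 were called from D15 to D90 and 5 of 20 from D15 to D250 with equal sums, and 3 and 1 with upper quartiles.

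Hyaluronan enzymes, CD44 partners and the proteases that shed adhesion receptors gave 1 higher call of 8 at D15, 3 of 10 at D90 and 3 of 11 at D250, and none lower, at medians of 0.68, 1.09 and 0.96. With equal sums 1 was called at D250. ADAM8, a protease of neutrophils, had 27.1, 33.4 and 25.2 FPKM in Kashmiri and 375, 262 and 675 FPKM in Jersey cattle, 13.8-, 7.84- and 26.8-fold higher. ADAM17, a protease that sheds surface receptors, was 5.29-fold higher at D90 and 6.96-fold at D250, and it rose from D15 to D250 in Jersey cattle. The remaining call at D90 and D250 was HYAL2, a hyaluronidase chosen after its values were seen, in a joined entry with 29.9 against 4.89 and 32.6 against 4.84 FPKM. EZR and MSN, which tie CD44 to actin, passed the limit between the breeds on no day. EZR had 112 to 270.3 FPKM and MSN 25.2 to 165 FPKM.

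The genes whose pattern over the 6 groups was most like that of ITGB2 were sought among 7458 names with at least 1 FPKM in every group, by the root mean square difference of the centred log2 levels. Among the closest were ARRB2 (0.208), RIPK3 (0.222), ORAI3 (0.236) and RPS6KA1 (0.241). ARRB2, which encodes β-arrestin 2, had 9.55, 37.5 and 15.8 FPKM in Kashmiri and 49.1, 54.9 and 51.6 FPKM in Jersey cattle. Like ITGB2, in deposited FPKM it was low in Kashmiri D15 and D250 and nearly level in the Jersey groups. With 6 values per gene and so many names compared, close profiles are a description only.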

How the data were processed

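RNA of cells purified from milk was sequenced by the authors from stranded mRNA libraries on an Illumina HiSeq. Reads were trimmed (Trimmomatic), mapped to UMD3.1 (TopHat, Bowtie2) and summarised per gene (Cufflinks, Cuffdiff) by the authors. The deposited values are Cuffdiff FPKM, 1 per gene and group, normalised for transcript length and mapped reads. Columns were matched to groups by stage and breed name, the name Local being taken for Kashmiri cattle, and 0 columns of values were left without a group. The authors' entries with joined names were kept as deposited.

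Each of the 9 comparisons (3 pairs of days in each breed and the breeds on each of 3 days) was computed over all distinct names with at least 1 FPKM in either group. A call needed a log2 ratio of at least 2 in size with a pseudocount of 1 FPKM, while folds carry no pseudocount. As there were no replicates, no p-value was computed, and depth per value was unknown. The members and lists were chosen with earlier results of these data known. Named were all members, up to 4 genes per list with at least 10 FPKM in a group in order of the highest value, PTPRC, LSP1, KRT18, CSN2 and HBB, and the 5 profiles closest to ITGB2, except that a few genes are not reported here and were left out of the lists. Genes named beyond this are given as chosen after their values were seen. HBA was not found by name. RefSeq annotation of another bovine assembly, NIAB-ARS_B.indTharparkar, was used for neighbouring names only. Alternatives were a pseudocount of 0.1, a lower limit of 0.01 FPKM, a log2 ratio of 1, rescaling by each group's upper quartile or to equal sums of all named genes but 6 milk protein genes, summed repeated entries and, added after the data were seen, the ICAM1 entry left out. The code was tested on simulated data. Versions were numpy 2.4.6 and pandas 2.3.3 for computing, matplotlib 3.10.9 for drawing and Python 3.11.15 for all of it.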

Additional observations from a re-analysis of the deposited data

Results flagged for a closer look

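The differences below stood out because the group values of the 2 breeds moved in opposite directions between the same days by at least 0.58 on the log2 scale in each. None was tested, since there was 1 value per group, and none of the 6 ratios passed the limit of a call. From D90 to D250 SELPLG had a log2 ratio of -1.004 for Kashmiri and of 1.29 for Jersey cattle, a difference (Jersey minus Kashmiri) of 2.29. For ITGAL over the same days it was -0.86 in Kashmiri and 1.23 in Jersey cattle, a difference of 2.10. From D15 to D90 ITGA4 stood at 0.87 for Kashmiri and at -0.66 for Jersey cattle, a difference of -1.53. The opposite signs were seen under both rescalings, where the difference was 1.22 and 1.94 for SELPLG, 1.03 and 1.75 for ITGAL, and -1.55 and -1.56 for ITGA4, in the order equal sums and upper quartile. With equal sums the Kashmiri ratio from D90 to D250 was -0.34 for SELPLG and -0.20 for ITGAL.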

How the results depend on the processing

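With 1 value per group, the results rest on the authors' scaling. No paired analysis was possible because there were no values per replicate, and leaving out a replicate was likewise not possible. Number of genes called out of 8: a pseudocount of 0.1 gave 1 for Kashmiri D250 over D15 (0 with a pseudocount of 1), and so did rescaling by the upper quartile. With a log2 ratio of 1 the counts were 6 for Kashmiri D90 over D15, 3 for Kashmiri D250 over D90, 2 for Kashmiri D250 over D15, 2 for Jersey D90 over D15, 2 for Jersey D250 over D90, 4 for Jersey D250 over D15 and 4 between the breeds at D90. With equal sums they were 3 for Kashmiri D90 over D15, 2 for Kashmiri D250 over D15 and 2 between the breeds at D250, and the median log2 ratio was -0.016 for Kashmiri D250 over D90, 1.57 for Kashmiri D250 over D15 and 1.15 between the breeds at D250. Without the ICAM1 entry, an alternative added after the data were seen, the counts were 0 for Jersey D90 over D15, 0 for Jersey D250 over D15 and 1 between the breeds at D90. The cause of the changes under rescaling was not tested. Over all settings 48 of 63 counts and 42 of 45 medians stayed near their values, and 327 of 351 single log2 ratios moved by less than 0.58. These totals include settings that could hardly move a ratio. Leaving out the ICAM1 entry left the ratios of the other genes as they were, and only CD44 had another entry to sum. All 24 ratios and all 3 medians that moved by 0.58 or more did so with equal sums. On that scale 48 ratios and 6 medians moved by less. Equal sums moved the median log2 ratio of all names tested between the breeds at D250 by -0.64, to -0.74, and in Kashmiri D250 over D15 by 0.85, to 0.81, and upper quartiles moved the former by -0.42, to -0.52. The split of all names called higher and lower in Jersey cattle at D250 was 1272 and 159, against 942 and 334 with upper quartiles and 828 and 624 with equal sums.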

Other observations

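LSP1, a leukocyte actin-binding protein gene, had 139, 254 and 68.6 FPKM at the 3 days in Kashmiri and 334, 170.0 and 149 FPKM in Jersey cattle, and passed the limit between the breeds on no day. LCP1, the gene of the leukocyte actin bundler L-plastin, was higher in Jersey cattle on all 3 days, by 5.04-, 4.08- and 7.36-fold. Its D90 call was lost with groups rescaled by their upper quartile. CORO1A, the coronin gene of white cells, had 153 to 499.6 FPKM in Kashmiri and 398 to 779 FPKM in Jersey cattle. It passed the limit on no day with the deposited scaling, but was called at D15 with equal sums. PTPRC rose from D15 to D250 in Jersey cattle. Genes of the complement protein C1q, made by macrophages, went the other way between these days, C1QA having 145 and 12.01 FPKM and C1QC 144 and 6.80 FPKM in Jersey cattle, while CD68 rose from 169 to 996 FPKM. HBB, a haemoglobin gene, reached 0.610 FPKM at most.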
